A study of Mus musculus with 2 samples.

Results

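The 10 genes described here encode secreted proteins of the TGF-beta and BMP system: the TGF-beta ligands Tgfb1, Tgfb2 and Tgfb3, the BMP ligands Bmp2, Bmp4, Bmp5 and Bmp6, and the BMP antagonists Grem1, Chrdl1 and Nog. They were chosen by name, with earlier results of these data known, and all 10 were found among the 21905 genes listed for both libraries. The study asked how chemotherapy acts on the cells that reside in bone. Female mice of 12 weeks were given either vehicle (Veh) or the DNA-damaging chemotherapy agent doxorubicin (Doxo) at 10 mg/kg, and cells were taken from their femurs and tibias 96 h later. Each treatment has 1 library by droplet-based single-cell RNA sequencing, and the number of mice behind a library was not stated. Both libraries held 2488 cells in the deposited values, so class sizes need not reflect what each library yielded. Blood cells were depleted beforehand with CD45, CD71 and Ter119. By the sample labels but not by the study's methods, cells with CD31, an endothelial marker, were depleted too. The part of this step in the makeup of the endothelial-like cells below was not tested. With 1 library per treatment, no value below has a replicate check, and no test between treatments was possible. The intervals given are exact 95% intervals and cover counting error only.

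TGF-beta ligands are secreted in a latent complex, and once released they act through receptor kinases that activate SMAD2 and SMAD3. BMPs, named for their ability to induce bone, act through related receptors and SMAD1, SMAD5 and SMAD9, and the Id genes are among their best known targets. Grem1, Chrdl1 and Nog bind BMPs outside the cell and keep them from their receptors, so that the signal a bone cell receives depends on both groups of proteins.

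The cells fell into 7 classes when clustered without the 10 genes and without a list of pathway genes. The 366 Veh and 425 Doxo CAR-like cells carried all 8 markers of Cxcl12-abundant reticular (CAR) cells, the marrow stromal cells that support blood formation. There were 1105 and 1357 bone and cartilage fibroblast-like cells, 413 and 246 arteriolar and endosteal fibroblast-like cells, 213 and 129 osteoblast-like cells, 244 and 207 chondrocyte-like cells, and 103 and 69 endothelial-like cells. Of their 8 markers each, the bone and cartilage fibroblast-like cells carried only 4 (Fmod, Comp, Cilp2 and Prg4), the osteoblast-like cells 6, the arteriolar and endosteal fibroblast-like cells 7, and the others 8. A cluster of 44 Veh and 55 Doxo cells, led by Tmem196, Clic5, Pcbd1 and Rab37, stayed unnamed. The libraries held 24859695 (Veh) and 20792014 (Doxo) UMIs, the molecules counted, and shared 4 cell barcodes. Median UMIs per cell ranged from 2988 in Doxo osteoblast-like cells to 19588.5 in Veh chondrocyte-like cells. Levels below are UMIs summed over a class per 1000000 UMIs of that class (CPM).

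The stretches before the transcription start are shown for 3 genes that were highest in CAR-like cells (Grem1, Bmp4 and Bmp5) and for Tgfb2, which was highest in chondrocyte-like cells. Each is 200 bases long, read 5′ to 3′ toward the start site, from the RefSeq promoter table on GRCm38.p6, where 6 of the 10 genes were matched. Capitals mark GC boxes (GGGCGG on either strand), a motif that 31.0% of 32851 mouse promoters hold in the same window.
Grem1, chr2:113758649-113758848, minus strand: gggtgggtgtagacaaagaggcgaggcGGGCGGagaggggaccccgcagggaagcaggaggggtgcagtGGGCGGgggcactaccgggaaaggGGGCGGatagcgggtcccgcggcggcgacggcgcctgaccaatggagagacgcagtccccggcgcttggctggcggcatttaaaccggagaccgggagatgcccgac
Bmp4, chr14:46390670-46390869, minus strand: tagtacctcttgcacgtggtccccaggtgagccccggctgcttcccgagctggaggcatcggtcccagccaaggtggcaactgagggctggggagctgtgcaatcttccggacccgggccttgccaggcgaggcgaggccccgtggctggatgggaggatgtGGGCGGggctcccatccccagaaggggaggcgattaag
Bmp5, chr9:75775165-75775364, plus strand: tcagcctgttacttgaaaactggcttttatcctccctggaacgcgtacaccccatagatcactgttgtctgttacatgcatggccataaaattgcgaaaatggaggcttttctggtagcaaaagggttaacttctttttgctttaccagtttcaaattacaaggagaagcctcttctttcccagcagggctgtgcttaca
Tgfb2, chr1:186705990-186706189, minus strand: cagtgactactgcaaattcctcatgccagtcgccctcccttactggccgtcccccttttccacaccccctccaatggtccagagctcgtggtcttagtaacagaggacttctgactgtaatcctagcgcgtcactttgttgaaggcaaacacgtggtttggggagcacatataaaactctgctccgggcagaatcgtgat

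Grem1 had 3 GC boxes and 71.0% G and C, Bmp4 had 1 and 67.5%, and Bmp5 and Tgfb2 had none and 43.5% and 52.5%. Among the genes matched but not shown, Tgfb1 had 5 GC boxes and Bmp6 had 1. The EBF core (CCCNNGGG on either strand), in 9.91% of all windows, was found in Tgfb1 as a pair of overlapping matches and in none of the other 5 genes. The CRE (TGACGTCA, 1.47% of windows) and AP-1 (TGANTCA, 5.48%) motifs, on either strand, were found in none of the 6. A match is a description of the letters only, and none of the motifs searched was present in all 3 of the genes shown that were highest in CAR-like cells.

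The class with the highest level of each member was the same in both libraries. In Doxo, however, the highest class of Tgfb2 and of Tgfb3 was not resolved from the next. Bmp4, Bmp5, Bmp6, Grem1 and Chrdl1 were highest in CAR-like cells, Tgfb2 and Nog in chondrocyte-like cells, Bmp2 in bone and cartilage fibroblast-like cells, Tgfb3 in arteriolar and endosteal fibroblast-like cells, and Tgfb1 in endothelial-like cells. Thus 5 of 10 members peaked in CAR-like cells, where 25.3% of all genes with at least 20 UMIs peaked in Veh and 28.1% in Doxo. For chondrocyte-like cells the count was 2 of 10, against 8.87% of all genes in Veh and 9.29% in Doxo. Since the members were chosen with earlier results of these data known, these shares are a description and not a test.

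**Figure D1:**
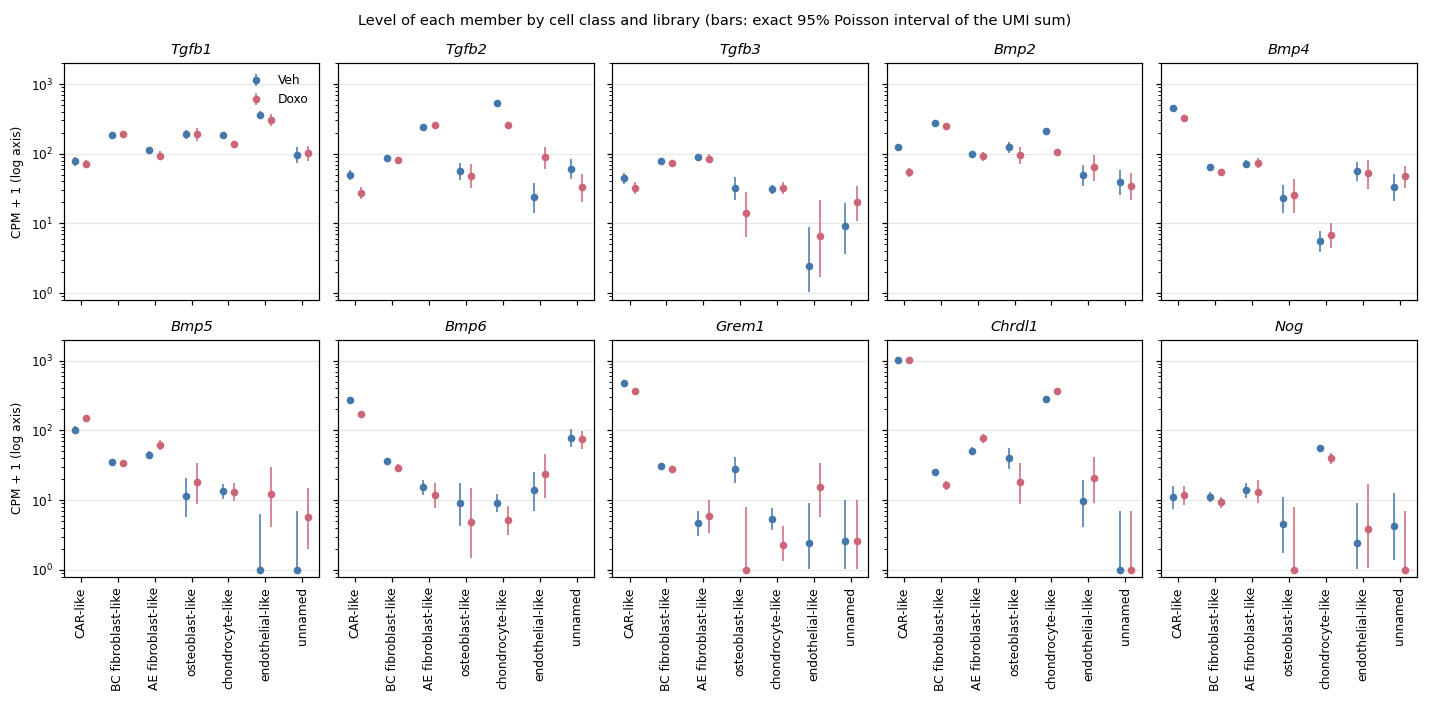
Level of each of the 10 genes (CPM plus 1, log axis) in each of the 7 cell classes, in Veh (blue) and Doxo (red), with bars for the exact 95% Poisson interval; BC is bone and cartilage and AE arteriolar and endosteal. Grem1 and Bmp4 stood above all other classes in CAR-like cells in both libraries, while Tgfb1 was present in every class.

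Tgfb1 (GRCm38, chr7:25687002-25705077, plus strand) was found at 362 CPM in Veh and 309 CPM in Doxo in endothelial-like cells, 1.91 (1.56 to 2.34) and 1.63 (1.33 to 1.98) times the next class. Osteoblast-like (190.0 and 188 CPM) and bone and cartilage fibroblast-like cells (183 and 189 CPM) were not resolved from each other in either library. The ligand was detected in every class, and CAR-like cells were lowest, at 77.2 CPM in Veh and 69.5 CPM in Doxo, although in Veh not resolved from the unnamed cluster (95.3 CPM).

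Tgfb2 (chr1:186622792-186705989, minus strand), a ligand needed for heart and skeletal development, divided the classes more sharply. In Veh it measured 529 CPM in chondrocyte-like cells and 241 CPM in arteriolar and endosteal fibroblast-like cells, a ratio of 2.19 (2.04 to 2.36). In Doxo these classes were not resolved, at 259 and 253 CPM. The other classes were at 88.6 CPM or less in both libraries, with CAR-like cells at 48.8 CPM in Veh and 26.7 CPM in Doxo.

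Tgfb3 (chr12:86056745-86079041, minus strand) was at 89.5 CPM in Veh and 83.9 CPM in Doxo in arteriolar and endosteal fibroblast-like cells, whereas bone and cartilage fibroblast-like cells measured 78.7 and 73.4 CPM. The order of these fibroblast classes was not resolved in Doxo, and in Veh the ratio was 1.14 (1.00 to 1.29). CAR-like cells followed at 43.2 and 31.4 CPM, not resolved from the next class in either library, and endothelial-like cells held 1 UMI in Veh and 2 in Doxo.

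Bmp2 (chr2:133552159-133562885, plus strand), a strong inducer of bone and cartilage, was highest in bone and cartilage fibroblast-like cells, at 279 CPM in Veh and 247 CPM in Doxo, where 62.4% and 54.5% of cells had a UMI. With each cell thinned to 2000 UMIs, which leaves out shallower cells (27 and 36 in this class), the shares were 32.4% and 29.6%. The chondrocyte-like level was 211 CPM in Veh and 104 CPM in Doxo, and in Doxo this was not resolved from osteoblast-like cells (95.2 CPM). The chondrocyte-like level rested on few cells: the 10% of them richest in Bmp2 held 79.2% and 82.0% of its UMIs in Veh and Doxo, with up to 147 in a cell of Veh and 36 in a cell of Doxo. In bone and cartilage fibroblast-like cells the richest 10% held 49.0% and 54.5%.

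Bmp4, Bmp5 and Bmp6 shared CAR-like cells as their highest class. Bmp4 (chr14:46383520-46390669, minus strand) was at 445 CPM in Veh and 324 CPM in Doxo, 6.24 (5.48 to 7.12) and 4.49 (3.78 to 5.37) times arteriolar and endosteal fibroblast-like cells. Bmp5 (chr9:75775364-75900310, plus strand) was at 102 CPM in Veh and 152 CPM in Doxo, 2.34 (1.93 to 2.85) and 2.50 (2.05 to 3.07) times the same class. Bmp6 (chr13:38345107-38500302, plus strand) was at 269 CPM in Veh and 169.8 CPM in Doxo, and its next class was the unnamed cluster, at 77.5 and 73.6 CPM. Bmp4 was lowest in chondrocyte-like cells, with 22 UMIs in Veh and 18 in Doxo, and Bmp5 was at 0 UMIs in Veh endothelial-like cells and in the Veh cells of the unnamed cluster.

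Among the antagonists, Grem1 (chr2:113746164-113758646, minus strand) reached 485 CPM in Veh and 366 CPM in Doxo in CAR-like cells, 16.3 (14.4 to 18.5) and 13.6 (12.0 to 15.5) times the next class, the bone and cartilage fibroblast-like cells. The latter were not resolved from osteoblast-like cells in Veh or from endothelial-like cells in Doxo. A UMI of Grem1 was found in 75.1% and 70.8% of CAR-like cells and in 7.24% and 8.33% of bone and cartilage fibroblast-like cells, at median depths of 6228.5 and 7324 UMIs against 9647 and 7275. Thinned to 2000 UMIs per cell, these shares were 47.9% and 42.8% against 2.50% and 3.18%. Adipoq, a CAR marker that fibroblasts should lack, had a UMI in 3.98% and 3.68% of those fibroblast-like cells and was at 0.516% and 0.228% of its CAR-like level, and Grem1 was at 6.13% and 7.34% of its own. Lepr, another CAR marker, had a UMI in 43.9% and 30.5% of them and was at 10.1% and 8.20% of its CAR-like level. The part of CAR-like RNA in the Grem1 values of these fibroblast-like cells was not tested.

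Chrdl1 (chrX:143285674-143394262, minus strand), chordin-like 1, was measured at 1008 CPM in Veh and 1029.6 CPM in Doxo in CAR-like cells, where 93.7% and 93.9% of cells had a UMI. Its next class was the chondrocyte-like cells, at 277 and 366 CPM, with a UMI in 88.9% and 90.3% of cells at median depths of 19588.5 and 14753 UMIs, and in 37.4% and 46.0% after thinning. Adipoq had a UMI in 6.97% and 4.35% of the same chondrocyte-like cells. Chrdl1 was not detected in the unnamed cluster, in 0 of 44 Veh cells, where a limit of 3 counts allows a share of up to 6.82%, and in 0 of 55 Doxo cells, where it allows up to 5.45%. These limit the share of cells with a UMI, not of cells that express the gene.

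Nog (chr11:89300638-89302332, minus strand) was the antagonist with its highest level in chondrocyte-like cells, 54.4 CPM in Veh and 38.6 CPM in Doxo. This was 4.23 (3.14 to 5.80) and 3.15 (2.03 to 5.06) times arteriolar and endosteal fibroblast-like cells, and below the chondrocyte-like cells no class was resolved from its neighbour in the order. In CAR-like cells Nog was at 10.0 CPM in Veh and 10.8 CPM in Doxo. CAR-like and chondrocyte-like cells thus both expressed Chrdl1, with Grem1 highest in the former and Nog in the latter.

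The genes with the most similar levels over the 14 groups of class and library were, by Pearson's r of log2(CPM + 1), Atp1b3 (0.965) and Schip1 (0.929) for Tgfb1, Fam180a (0.951) and F3 (0.901) for Tgfb2, and Dixdc1 (0.924) and Prkar1b (0.916) for Tgfb3. They were Omd (0.856) and Znhit6 (0.853) for Bmp2, Fam20a (0.979) and St6galnac4 (0.942) for Bmp4, Emb (0.936) and Smo (0.896) for Bmp5, and Cib1 (0.948) and Atp2a2 (0.915) for Bmp6. For the antagonists they were Hsf2bp (0.918) and Cybb (0.897) for Grem1, Prkar2b (0.927) and Slc5a3 (0.926) for Chrdl1, and Pafah1b3 (0.956) and Smim3 (0.926) for Nog. The 14 groups come from 2 libraries and 7 classes and are not independent.

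Next, Doxo was compared with Veh within each class, as the log2 ratio of the levels with 0.5 UMI added to each sum. Of the 56 pairs of member and class with at least 20 UMIs, 7 were lower and 1 was higher in Doxo by at least 1 log2 unit, and 39 lay below 0 and 17 above. Of all genes tested, 2.68% to 7.12% were lower by that much and 1.30% to 5.14% higher, depending on the class. The split of all genes at 0 was not computed. The median of the members, set against that of all genes tested, was -0.43 against 0.058 in CAR-like cells, -0.46 against 0.063 in chondrocyte-like cells and -0.36 against -0.032 in osteoblast-like cells. The bone and cartilage fibroblast-like cells had -0.16 against -0.088, the arteriolar and endosteal ones -0.016 against -0.018, the endothelial-like cells 0.15 against 0.04 and the unnamed cluster -0.074 against 0.027. Several marker lists moved with the library in CAR-like cells: the summed level was 7466 CPM in Veh and 2112 CPM in Doxo for 8 osteoblast markers, 368 and 2.70 CPM for 5 erythroid markers and 504 and 62.9 CPM for 7 immune markers. Other lists rose: the sum was 7.60 CPM in Veh and 54.2 CPM in Doxo for 3 adipocyte markers, and 150.0 and 332 CPM for 6 pericyte or smooth muscle markers. Their part in the results was not tested, and sums over a class cannot tell fewer molecules per cell from a change in which cells make up the class.

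**Figure D2:**
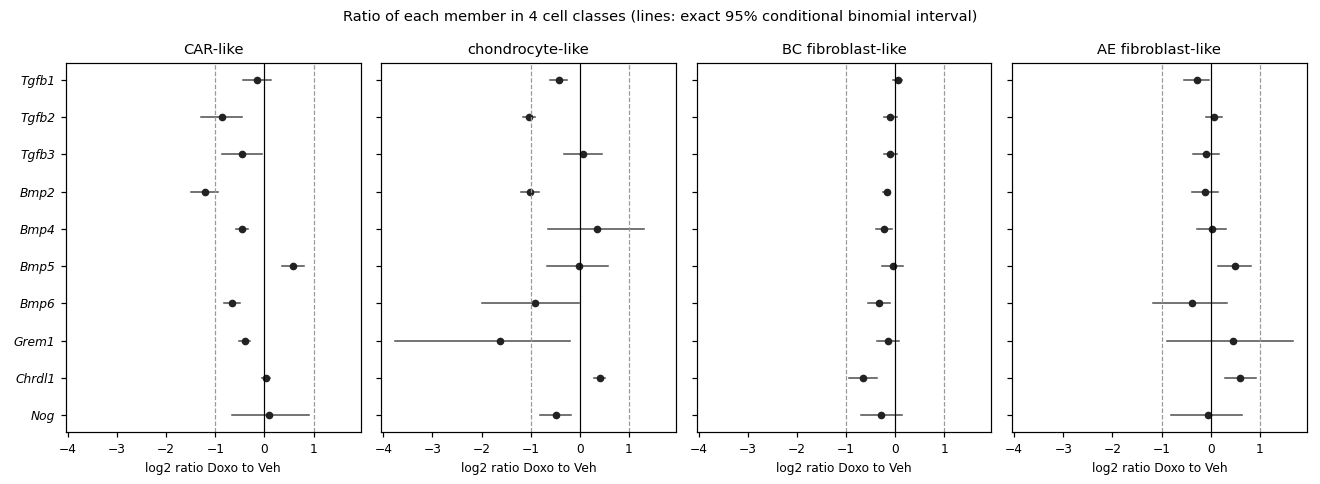
Log2 ratio of Doxo to Veh for each member (points) in 4 classes, with lines for the exact 95% interval of counting error; dashed lines mark 1 log2 unit, and BC and AE are as in the plot of levels. Bmp2 passed the dashed line in CAR-like and chondrocyte-like cells, Tgfb2 and Grem1 did in chondrocyte-like cells, and all points lay within 1 log2 unit in both fibroblast-like classes.

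In CAR-like cells, 1 of 10 members was lower by at least 1 log2 unit, against 3.26% of all genes, and 0 of 10 higher, against 3.85%. The member was Bmp2, with 310 UMIs in Veh and 178 in Doxo, or 124 CPM in Veh and 53.3 CPM in Doxo, a log2 ratio of -1.22 (-1.49 to -0.95). Smaller ratios with intervals below 0 were those of Tgfb2 at -0.87 (-1.28 to -0.47), Bmp6 at -0.66 (-0.83 to -0.50), Tgfb3 at -0.46 (-0.86 to -0.058), Bmp4 at -0.46 (-0.58 to -0.34) and Grem1 at -0.41 (-0.52 to -0.29). Bmp5 was the only member whose interval lay above 0, with 254 UMIs in Veh and 508 in Doxo and a ratio of 0.58 (0.36 to 0.81). Chrdl1 was at 0.031 (-0.043 to 0.11), Nog at 0.10 (-0.67 to 0.91) and Tgfb1 at -0.15 (-0.43 to 0.13). With each cell thinned to 2000 UMIs, the share of CAR-like cells with a UMI was 18.3% and 26.3% in Veh and Doxo for Bmp5, 40.4% and 28.0% for Bmp6 and 12.6% and 8.94% for Bmp2. Before thinning, the shares were 44.3% and 61.2% for Bmp5, 68.6% and 60.5% for Bmp6, and 30.9% and 26.1% for Bmp2.

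Most Bmp2 UMIs of Veh CAR-like cells lay in a population that had few Doxo cells. CAR-like cells clustered alone gave 3 populations: the first had 272 Veh and 405 Doxo cells, the second 83 and 4, and the last, which carried 7 of 8 bone and cartilage fibroblast markers, 11 and 16. The second was led by the cytokine genes Il6, Ccl7, Ccl2 and Cxcl1, and a population mostly of 1 library may be that library and not a type. It held 211 of the 310 Bmp2 UMIs of Veh CAR-like cells. Within Veh, Bmp2 was at 287 CPM in the second and 42.7 CPM in the first population, 6.72 times as high (log2 2.74, 2.35 to 3.16), and it was found in 61.4% and 19.9% of their cells.

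Grem1 went the same way as Bmp2 between these populations and Bmp4 the opposite way. In Veh, Grem1 was at 751 CPM in the second and 384 CPM in the first population (log2 0.97, 0.80 to 1.14), whereas Bmp4 was at 203 and 567 CPM (log2 -1.48, -1.74 to -1.23). Bmp6 was at 278 and 273 CPM (log2 0.024, -0.22 to 0.27), Bmp5 at 97.9 and 109 CPM (log2 -0.15, -0.57 to 0.25) and Chrdl1 at 955 and 1082 CPM (log2 -0.18, -0.31 to -0.053).

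In the first population alone, Bmp2 was at 42.7 CPM in Veh and 42.3 CPM in Doxo, a log2 ratio of -0.018 (-0.45 to 0.43), and Grem1 at 384 and 379 CPM, a ratio of -0.017 (-0.16 to 0.13). Bmp4 was at 567 and 343 CPM, or -0.72 (-0.85 to -0.59), Bmp6 at -0.61 (-0.79 to -0.42), Tgfb2 at -0.70 (-1.18 to -0.21) and Bmp5 at 0.55 (0.30 to 0.81). With the CAR-like cells divided into 4 populations, the one led by Ccl7, Ccl2 and Cxcl1 had 142 Veh and 71 Doxo cells. Bmp2 was at 209 CPM in Veh and 62.0 CPM in Doxo there, a ratio of -1.73 (-2.31 to -1.23), and Grem1 at 633 and 804 CPM, a ratio of 0.34 (0.17 to 0.52). Another population had 34 Veh and 263 Doxo cells. One of 179 and 75 cells was led by the hemoglobin genes Hbb-bs and Hba-a1 and carried the osteoblast markers Bglap, Bglap2 and Ibsp. Its cells had a median of 0.639 times the median UMIs of CAR-like cells in their library. The part of red-cell and osteoblast RNA in its values was not tested. Bmp2 was at 33.8 and 39.9 CPM in the population of 34 and 263 cells and 39.3 and 43.7 CPM in that of 179 and 75. In this order the ratio of Grem1 was 0.15 (-0.19 to 0.52) and -0.66 (-1.03 to -0.31). The Bmp2 difference in the class cannot be told apart from the makeup of the class.

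The other members were read by the same division. Bmp4 was below 0 in each of the 4 populations, with -0.63 (-0.86 to -0.37) in that of 34 and 263 cells, -0.77 (-1.09 to -0.46) in that of 179 and 75, -0.38 (-0.68 to -0.10) in that of 142 and 71 and -1.17 (-1.76 to -0.60) in that of 11 and 16. The last of these carried 7 of 8 bone and cartilage fibroblast markers. Its cells had a median of 2.43 times the median UMIs of CAR-like cells in their library, and the part of doublets was not tested. In the same order Bmp6 was at 0.12 (-0.30 to 0.60), -0.71 (-1.16 to -0.30), -0.69 (-1.04 to -0.36) and -1.08 (-1.87 to -0.30), and in the population with most Doxo cells the interval held 0. Bmp5 was at 0.44 (-0.055 to 1.01), 0.46 (-0.08 to 0.96), 0.86 (0.44 to 1.27) and 0.55 (-0.63 to 1.98), above 0 in each but with an interval above 0 in 1. Tgfb2, with 4 UMIs in Veh and 58 in Doxo in the first of these, was at 0.82 (-0.45 to 2.90) there and at -0.66 (-2.15 to 0.45), -1.26 (-2.24 to -0.45) and -1.26 (-2.61 to -0.0024) in the others.

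**Figure D3:**
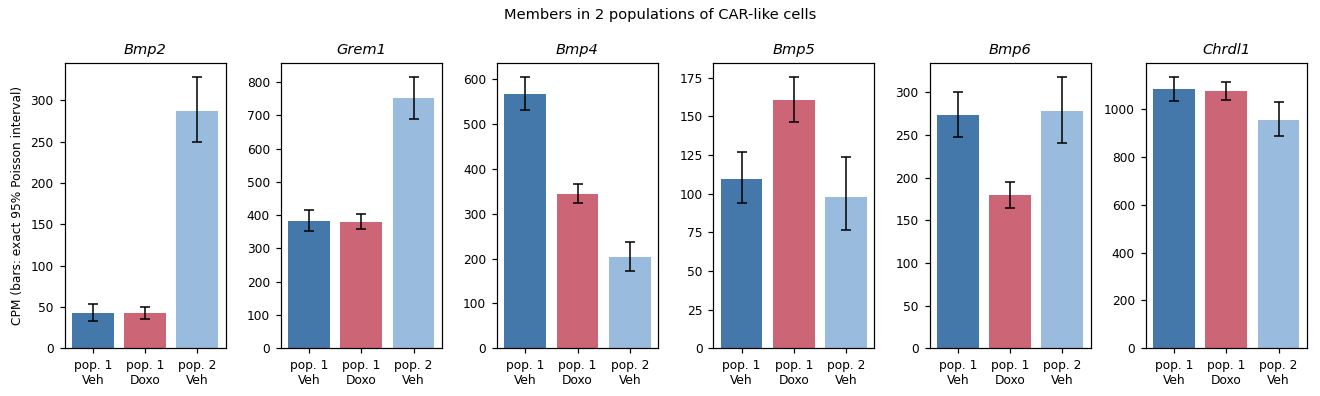
Level (CPM, from 0, with a scale of its own for each gene) of 6 members in the first population of CAR-like cells in Veh and Doxo and in the second population in Veh, with the exact 95% Poisson interval; the 4 Doxo cells of the second population are not drawn. Bmp2 was at 42.7 and 42.3 CPM in the first population and 287 CPM in the second, and Bmp4 at 567 and 343 CPM and 203 CPM.

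In chondrocyte-like cells, 3 of 10 members were lower by at least 1 log2 unit, against 5.20% of all genes, and 0 of 10 higher, against 4.74%. Tgfb2 had 2556 UMIs in Veh and 810 in Doxo, or 529 CPM in Veh and 259 CPM in Doxo, a log2 ratio of -1.03 (-1.15 to -0.92). Thinned to 2000 UMIs per cell, the share of cells with a UMI of Tgfb2 was 44.5% and 29.2% in Veh and Doxo, from 87.3% and 80.7% before thinning. Bmp2 was at -1.01 (-1.20 to -0.83), and Grem1, with 21 UMIs in Veh and 4 in Doxo, at -1.63 (-3.77 to -0.20). Grem1 was there at 0.896% and 0.349% of its CAR-like level in Veh and Doxo, and Adipoq at 0.487% and 0.255% of its own. The part of CAR-like RNA in the Grem1 ratio was not tested. With cells assigned to classes by standardized marker levels, a step chosen after seeing the data, the log2 ratio of Grem1 in chondrocyte-like cells was 0.15, and the log2 ratio of Bmp2 in chondrocyte-like cells was -0.46. Tgfb1 was at -0.43 (-0.60 to -0.26), Bmp6 at -0.92 (-1.99 to -0.023), Nog at -0.49 (-0.82 to -0.18) and Chrdl1 at 0.40 (0.29 to 0.52).

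The cells of both libraries divided unevenly within the class, and a subcluster mostly of 1 library may be that library and not a type. Clustered alone, a step chosen after seeing the data, the chondrocyte-like cells gave 3 subclusters with 158 Veh and 18 Doxo cells, 19 Veh and 130 Doxo cells, and 67 Veh and 59 Doxo cells. The first was led by genes that included Fam167a and Gprc5a, the second by Ddit3, Ihh and Zfp36, and the last by Hbb-bs, a hemoglobin gene of red cells, and Mast1. The first also carried 3 of 8 CAR markers (Cxcl12, Hp and Lpl) against the rest of the class. The CAR marker Adipoq was at 15.7 and 53.6 CPM in Veh and Doxo cells of the first. These levels came from 54 UMIs in 6.33% of its Veh cells and 16 UMIs in 5.56% of its 18 Doxo cells. Adipoq was at 0 and 0.930 CPM in the second and 14.3 and 14.6 CPM in the last. The part of this RNA in the values below was not tested. Tgfb2 was at 654 and 349 CPM in Veh and Doxo cells of the first, a ratio of -0.90 (-1.21 to -0.62), at 269 and 280.0 CPM in the second, a ratio of 0.052 (-0.26 to 0.39), and at 201 and 152 CPM in the last, a ratio of -0.40 (-0.76 to -0.058). Bmp2 was at 222 and 308 CPM in the first subcluster, a ratio of 0.48 (0.15 to 0.79), at 511 and 104 CPM in the second and at 77.3 and 16.1 CPM in the last, a ratio of -2.21 (-3.32 to -1.35). Its sign thus differed between the first subcluster and the others. In the first it rested on 92 UMIs of 18 Doxo cells, and in the second on 173 UMIs of 19 Veh cells. Few cells of the class held most of its Bmp2 UMIs. Whether they set these signs was not tested, and the intervals do not cover it. Nog had 206 UMIs in Veh and 2 in Doxo in the first, a ratio of -2.84 (-6.21 to -1.29), and was at -0.33 (-0.99 to 0.44) in the second. Chrdl1 was at -0.052 (-0.43 to 0.29), 0.25 (-0.041 to 0.57) and 0.30 (0.077 to 0.52).

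Of the 8 markers of the class, 6 had a log2 ratio below 0 and 2 above. The cartilage matrix genes Col2a1 and Col9a1 were lowest, at -0.73 and -0.71 in chondrocyte-like cells, and Sox9, the factor that specifies cartilage, was highest, at 0.37. Acan, Matn3, Mia and Snorc lay between -0.26 and -0.17, and Pth1r was at 0.22. The summed level of 7 early-response genes (Fos, Fosb, Jun, Junb, Egr1, Atf3 and Ier2), listed after values were seen, was 10146 CPM in Veh and 21973 CPM in Doxo, and that of the osteoblast markers 10845 and 3912 CPM. Their part in the Tgfb2, Bmp2 and Chrdl1 values was not tested.

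**Figure D4:**
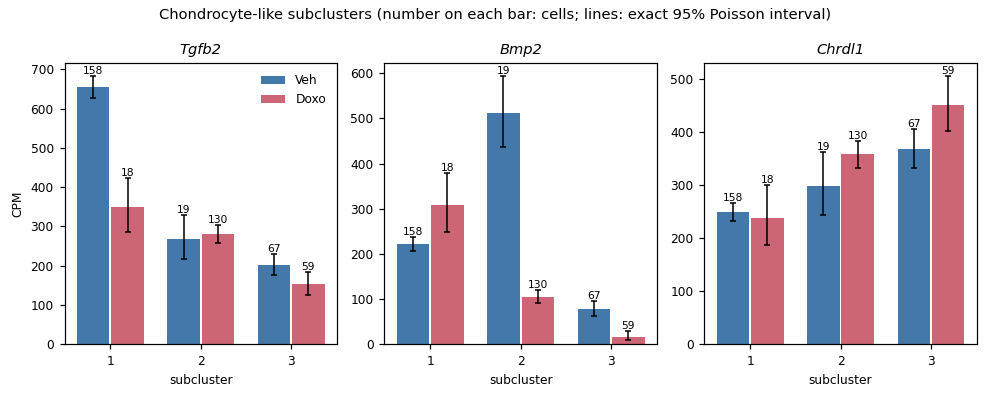
Level (CPM, from 0) of Tgfb2, Bmp2 and Chrdl1 in 3 subclusters of chondrocyte-like cells in Veh (blue) and Doxo (red), with the exact 95% Poisson interval and the number of cells above each bar. The first subcluster held 158 Veh and 18 Doxo cells and the second 19 and 130, and the Bmp2 bars stood in opposite order in them. Few cells of the class held most of its Bmp2 UMIs, which the intervals do not cover.

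In bone and cartilage fibroblast-like cells, 0 of 10 members were higher by at least 1 log2 unit, against 1.30% of all genes, and 0 of 10 lower, against 3.43%. The ratios farthest from 0 were those of Chrdl1, with 271 UMIs in Veh and 165 in Doxo, at -0.66 (-0.95 to -0.37), and Bmp6, at -0.33 (-0.55 to -0.11). Bmp2, for which this was the highest class, was at -0.17 (-0.25 to -0.10). Clustered alone, likewise after seeing the data, these cells gave subclusters of 663 Veh and 737 Doxo cells, led by Cd55, Angptl7 and Slurp1, of 387 Veh and 579 Doxo cells, led by Msmp, Mia and Cnmd, and of 55 Veh and 41 Doxo cells. Against the rest of the class, the first carried 3 of 8 arteriolar and endosteal fibroblast markers (Clec3b, Ly6a and Cd34) and the second 5 of 8 osteoblast markers (Bglap, Bglap2, Ibsp, Alpl and Sp7). Bmp2 was at 0.07 (-0.03 to 0.17) in the first and at -0.55 (-0.66 to -0.43) in the second. Bmp4 and Grem1 divided these subclusters in opposite ways: Bmp4 was at 88.8 and 78.2 CPM in Veh and Doxo cells of the first and 20.6 and 25.5 CPM in the second, whereas Grem1 was at 20.2 and 9.24 CPM and 48.8 and 49.7 CPM. The ratio of Grem1 was -1.12 (-1.61 to -0.67) in the first and 0.024 (-0.26 to 0.31) in the second, and the part of other cell types in these values was not tested.

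In arteriolar and endosteal fibroblast-like cells, 0 of 10 members were higher by at least 1 log2 unit, against 1.94%, and 0 of 10 lower, against 3.85%. The intervals of Chrdl1, with 205 UMIs in Veh and 154 in Doxo, at 0.61 (0.29 to 0.91), and of Bmp5, with 179 UMIs in Veh and 124 in Doxo, at 0.49 (0.15 to 0.83), lay above 0. Tgfb1 was at -0.28 (-0.53 to -0.035) and Tgfb2 at 0.07 (-0.087 to 0.22). Bmp5 therefore had a ratio above 0 in this class and in CAR-like cells, its highest classes, while the bone and cartilage fibroblast-like cells were at -0.053 (-0.27 to 0.16).

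In osteoblast-like cells, 3 of 7 members with enough UMIs were lower by at least 1 log2 unit, against 7.12% of all genes, and 0 higher, against 3.17%. All 3 rested on few molecules: Tgfb3 had 27 UMIs in Veh and 7 in Doxo, at -1.16 (-2.67 to 0.0043), Chrdl1 34 and 9, at -1.14 (-2.45 to -0.11), and Grem1 23 and 0. Of the 23 Grem1 UMIs, 18 came from 1 cell, and of the 34 Veh UMIs of Chrdl1, 14 did. With classes from standardized marker levels, the log2 ratio of Chrdl1 in osteoblast-like cells was 0.30. The upper limit of the log2 ratio of Grem1 was -1.81, and without that cell 5 UMIs in Veh stood against 0 in Doxo. With Grem1 set at a limit of 3 counts over the Doxo cells of the class, the member median stayed at -0.36. Tgfb1, which bone matrix stores in its latent form, was at 190.0 CPM in Veh and 188 CPM in Doxo, a ratio of -0.0085 (-0.39 to 0.36).

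In endothelial-like cells, 1 of 4 members was higher, against 5.14% of all genes, and 0 lower, against 3.87%. It was Tgfb2, with 16 UMIs in Veh and 31 in Doxo, at 1.93 (1.04 to 2.93), found in 8.74% and 15.9% of cells at median depths of 6326 and 4629 UMIs, and in 4.17% and 8.20% after thinning. On thinned cells the log2 ratio of Tgfb2 in endothelial-like cells was 0.90. The summed level of the 8 CAR markers in this class was 826 CPM in Veh and 2577 CPM in Doxo, and all 7 Chrdl1 and all 5 Grem1 UMIs of its Doxo cells came from 1 cell each. The part of such RNA in the Tgfb2 value was not tested. In the unnamed cluster, 0 of 5 members were higher, against 3.85%, and 0 lower, against 2.68%. Bmp6 there was at 77.5 CPM in Veh and 73.6 CPM in Doxo, a ratio of -0.074 (-0.69 to 0.54).

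The rest of the pathway was followed with a list of 80 genes, of which 77 were in the files. In CAR-like cells 4 of 60 measured genes were higher and 2 lower, or 6.67% and 3.33%, where 3.85% and 3.26% of all genes were. Id1, a direct BMP target, had 170 UMIs in Veh and 635 in Doxo, or 68.0 CPM in Veh and 190.2 CPM in Doxo, a log2 ratio of 1.48 (1.24 to 1.74), and in the first of the 3 CAR-like populations it was at 1.63 (1.32 to 1.98). Of the 4 populations, that of 34 Veh and 263 Doxo cells had 0.40 (-0.13 to 1.03), that of 179 and 75 had 2.12 (1.37 to 2.91), that of 142 and 71 had 2.13 (1.78 to 2.49) and that of 11 and 16 had 1.61 (0.90 to 2.45). Bmper, a secreted BMP modulator, was at 1.34 (0.81 to 1.93). The genes lower were Gdf15, a stress-induced member of the TGF-beta family, at -2.01 (-2.46 to -1.59), and Tgif1, a repressor of TGF-beta target genes, at -1.08 (-1.49 to -0.68). Gdf15 was also among the 10 leading genes of the second CAR-like population.

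Id1 and Id3 were above 0 in most classes. Id3 was above 0 in all 7, between 0.18 in endothelial-like and 0.89 in chondrocyte-like cells. Id1 was above 0 in 6, with 1.10 (1.01 to 1.20) in chondrocyte-like, 0.72 in arteriolar and endosteal fibroblast-like and 0.61 in bone and cartilage fibroblast-like cells, but -0.50 in osteoblast-like cells. Id2, of the same family, was at -0.48 in CAR-like cells. The summed level of the 7 early-response genes was also above its Veh value in chondrocyte-like cells, as given above, in both fibroblast-like classes (8086 and 13623 CPM for bone and cartilage, 9315 and 13209.5 CPM for arteriolar and endosteal), in endothelial-like cells (8478 and 11157 CPM) and in the unnamed cluster (4861 and 6880.2 CPM). It was below its Veh value in osteoblast-like (8585 and 7082 CPM) and CAR-like cells (12035 and 10587 CPM), and its part in the Id values was not tested.

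In chondrocyte-like cells 3 of 56 pathway genes were higher and 3 lower, or 5.36% and 5.36%, against 4.74% and 5.20% of all genes. Id4 was at 1.67 (1.40 to 1.96), while Pmepa1, a TGF-beta target that dampens the SMAD signal, had 2952 UMIs in Veh and 519 in Doxo and was at -1.88 (-2.02 to -1.75). By subcluster Pmepa1 was at -0.38, -1.19 and -2.05, and Id1 at 0.50, 0.64 and 1.60. Inhbb, which encodes a subunit of activin and inhibin, had 22 UMIs in Veh and 3 in Doxo and was at -2.06 (-4.63 to -0.51).

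Of 72 pathway genes measured in bone and cartilage fibroblast-like cells, 3 were higher and 3 lower, or 4.17% and 4.17%, against 1.30% and 3.43% of all genes. Bmper was at 1.70 (0.87 to 2.68) and Hey1, a target shared with Notch, at 1.33 (0.13 to 2.77). Mstn, which encodes myostatin, was at -1.91 (-2.29 to -1.56) and the ligand gene Bmp3 at -1.56 (-2.50 to -0.75). Of 65 measured in arteriolar and endosteal fibroblast-like cells, 1 was lower, the ligand gene Bmp8a at -1.20 (-3.05 to 0.11), where 3.85% of all genes were.

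Among 46 pathway genes in osteoblast-like cells, 1 was higher and 8 lower, or 2.17% and 17.4%, against 3.17% and 7.12% of all genes. Smad7, an inhibitory SMAD, had 302 UMIs in Veh and 60 in Doxo and was at -1.61 (-2.04 to -1.21), and Smad2 was at -1.48 (-2.98 to -0.37). The gene higher was Fst, an activin antagonist, at 1.04 (0.21 to 1.91). The erythroid markers summed to 336 CPM in Veh and 0 CPM in Doxo in this class, and the part of such RNA was not tested.

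In endothelial-like cells 2 of 43 pathway genes were higher, or 4.65% against 5.14% of all genes, the BMP antagonist gene Nbl1 at 1.80 (1.11 to 2.53) and Thbs1, whose product activates latent TGF-beta, at 1.33 (0.62 to 2.06). The 2 lower (4.65% against 3.87%) were Tgif1 at -1.37 (-2.50 to -0.48) and Inhbb at -1.23 (-2.14 to -0.48). In the unnamed cluster 3 of 47 were higher, or 6.38% against 3.85%, among them Id4 at 1.19 (0.16 to 2.39) and Furin, a protease that matures the ligands, at 1.07 (0.50 to 1.69). The 2 lower (4.26% against 2.68%) were Thbs1 at -1.85 (-2.44 to -1.32) and Smad7 at -1.18 (-1.81 to -0.60).

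No receptor gene passed 1 log2 unit in CAR-like, chondrocyte-like, endothelial-like or either kind of fibroblast-like cells. These classes had 11, 9 and 8 measured receptor genes, and 13 (bone and cartilage) and 11 (arteriolar and endosteal). With so few, a count of 0 lies near the shares of all genes given above. In the remaining classes Eng, a TGF-beta co-receptor, passed 1 log2 unit, at -1.38 in osteoblast-like cells and 1.01 in the unnamed cluster.

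**Figure D5:**
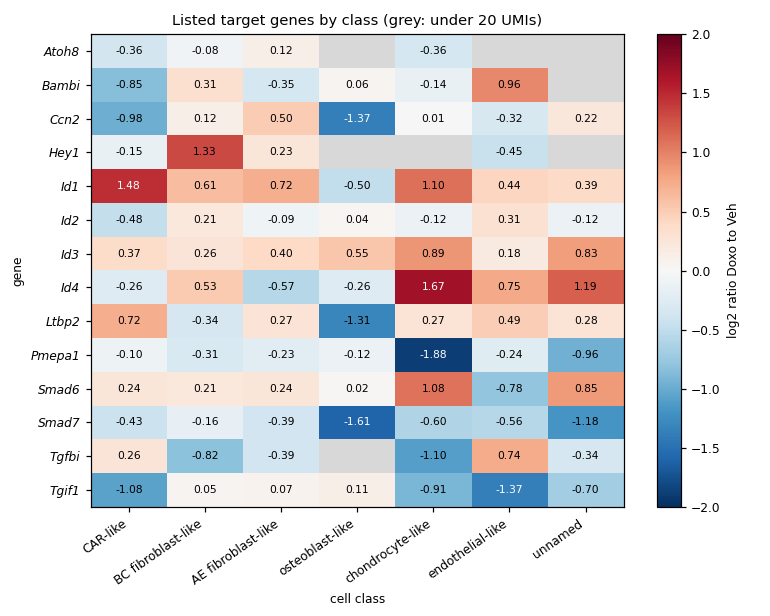
Log2 ratio of Doxo to Veh for 14 listed target genes (rows) in the 7 classes (columns), red above and blue below 0, with the value in each cell and grey for under 20 UMIs. Id3 was above 0 in every class and Id1 in all but osteoblast-like cells, while Pmepa1 was at -1.88 in chondrocyte-like cells.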

How the data were processed

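Single-cell RNA was measured in 1 Veh and 1 Doxo library. The submitters' processing notes name Cell Ranger, Partek and GRCm38 (mm10); versions were not given in the sources used here. The deposited values were log2 values per gene and cell, which by their sums the authors had scaled in 2 rounds to 1000000 per cell. The scaling was inverted to UMIs, and 99.94% of values up to 50 UMIs came out whole within 0.05 in Veh. For 21 gene symbols, no member among them, they did not.

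All cells had 200 to 10000 genes and at most 10% mitochondrial UMIs, the study's limits. They were merged in Seurat 5.3.0 (R 4.3.3) and clustered at resolution 0.1 on 35 components of 2000 variable genes, less the members and pathway genes. No doublet caller was run. Endothelial-like cells were set aside and the rest clustered again. A cluster was named from at least 3 listed markers that 10% or more of its cells held and that lay 1 log2 unit above other cells. CAR-like cells alone were clustered at the lowest resolution giving 3 populations.

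UMIs were summed per class and library. Intervals were Poisson, Clopper-Pearson or conditional binomial (scipy 1.17.1). Ratios counted as higher or lower from 1 log2 unit with at least 20 UMIs. All members were named, and in each class up to 2 pathway genes with the highest and up to 2 with the lowest ratio past 1 log2 unit; other genes, such as Id2, Id3, Eng and the leading genes of clusters, were named after their values were seen. For likeness, genes needed at least 100 UMIs. Marker lists for immature osteoclasts, pericytes, megakaryocytes, muscle, adipocytes and Schwann cells each summed to at most 762 CPM in any class. Positions are from GENCODE M21. Bmp5 overlaps Gm47723 on its own strand, and Tgfb2, Tgfb3, Bmp4, Bmp5 and Bmp6 overlap genes on the opposite one (Ttll5 and Txndc5 among them), so that their counts are less certain. Alternatives covered the cell filter, components, classes, thinning, the minimum of UMIs and the limit of 1 log2 unit. The members and lists were chosen with earlier results of these data known, and scripts were tested on simulated data. Results for certain genes are not reported here.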

Additional observations from a re-analysis of the deposited data

Results flagged for a closer look

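A pair of members went in opposite directions in different classes, each with an interval on its own side of 0. The differences between classes were not tested, since each class has 1 library per treatment. For Tgfb2, the log2 ratio of Doxo to Veh was 1.93 in endothelial-like cells, on 16 and 31 UMIs, and -1.03 in chondrocyte-like cells, on 2556 and 810. For Chrdl1 it was 0.61 in arteriolar and endosteal fibroblast-like cells, on 205 and 154 UMIs, and -1.14 in osteoblast-like cells, on 34 and 9. With the cell richest in the gene left out of each library, the log2 ratio of Tgfb2 in endothelial-like cells was 1.85, and the log2 ratio of Chrdl1 in osteoblast-like cells was -2.32. The 9 Doxo UMIs of Chrdl1 lay in 2.33% of the 129 Doxo osteoblast-like cells, so the Chrdl1 values rest on few cells. With classes from standardized marker levels the Chrdl1 ratio in osteoblast-like cells was positive, as given above.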

How the results depend on the processing

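With 1 library per treatment, counting error is the only error measured, and treatment cannot be told apart from library, mouse or sort. No paired analysis was possible because each group has 1 library. CAR-like cells stayed the highest class for 5 members under the 7 alternatives for which levels by class were computed, which do not include the classes from standardized markers. Of the others, Tgfb3 moved to bone and cartilage fibroblast-like cells with 20 components, with classes from marker levels and, in Doxo, with each cell weighing the same. In Doxo, Tgfb2 moved to arteriolar and endosteal fibroblast-like cells with classes from marker levels, thinned and with each cell weighing the same.

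Of 84 values of the called ratios under alternatives, 81 kept their sign and 62 were past 1 log2 unit. The 7 lower pairs became 4 with cells limited to 1000 genes or more and to 5% mitochondrial UMIs, 4 with 20 components, 1 thinned to 2000 UMIs, where fewer pairs reach 20 UMIs, and 12 at 0.5 log2 unit. The 1 higher pair became 3 with each cell weighing the same, 8 with no minimum above 1 UMI and 4 at 0.5 log2 unit. With 20 components no unnamed cluster was found, so its pairs had no value there. Pathway pairs were 17 higher and 21 lower, 59 and 39 with no minimum, and 58 and 84 at 0.5 log2 unit. More pairs are counted with no minimum, and no share of all genes was computed under these alternatives, so these counts are a description only. Shares of all genes at the reported limits are given by class above.

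The log2 ratio of Bmp2 in CAR-like cells was -0.018 in the largest population alone. The log2 ratio of Tgfb2 in chondrocyte-like cells was -0.91 without the 5% of cells with most UMIs, -0.91 thinned, -0.90 in the largest subcluster and -1.24 with classes from standardized markers. In this order the log2 ratio of Bmp2 in chondrocyte-like cells was -1.68, -1.37, 0.48 and -0.46, and with each cell weighing the same it was -1.26. The log2 ratio of Grem1 in chondrocyte-like cells was -3.77 without the 5% of cells with most UMIs, -0.17 in the largest subcluster and 0.15 with standardized markers. The log2 ratio of Chrdl1 in osteoblast-like cells was -4.29 under the filter on genes and mitochondrial UMIs and 0.30 with standardized markers. The log2 ratio of Tgfb2 in endothelial-like cells was 0.90 thinned. The causes were not tested. The settings by subcluster, by standardized markers and without the richest cell were chosen after seeing the data.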
